A study of Mus musculus with 4 samples.

Results

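The postsynaptic density scaffold genes examined here were Shank1, Shank2, Shank3, Dlg2, Dlg4, Dlgap1, Dlgap3, Dlgap4, Ddn and Homer1, chosen as the rows of the deposited polyA site table that carried these gene names. Of the 10 genes, 9 had a row, with 21 of the 9297 listed sites and 305 of the 34672 tags in the table. The data came from 4 replicate libraries of cTag-PAPERCLIP. The method crosslinks RNA to a tagged poly(A)-binding protein and sequences the junctions of 3′UTR and polyA tail. Each tag was therefore read as the 3′ end of an mRNA, although some tags lay in introns or at sequence like a noncoding RNA. All 4 libraries were a single group, CA1 neuropil microdissected from UV-crosslinked hippocampal slices of C57BL/6 mice that carried Camk2a-Cre and the Pabpc1-cTag allele. In these mice Cre driven from the Camk2a promoter switches on a GFP-tagged Pabpc1 in pyramidal neurons, and each library was a pool of several animals, whose age the labels do not give. The tag also reaches the axons of such neurons, and the dissected layer holds glia and interneuron processes. Neither a cell body library nor a library without Cre was analysed here, so the values below are levels within neuropil and not enrichments.

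The postsynaptic density is the protein mesh under the membrane of an excitatory synapse, built in layers. Dlg proteins bind glutamate receptors and adhesion molecules at the membrane, Dlgap proteins link Dlg to Shank, and Shank together with Homer forms a deeper lattice that reaches the actin cytoskeleton and metabotropic glutamate receptors. Dendrin, encoded by Ddn, is a dendritic protein of the same compartment. Several mRNAs of this family are known to be carried into dendrites, where the 3′UTR is a main site of control, and the end of that 3′UTR is what the tags measure.

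The 3′ ends that carried the scaffold tags are given first, as the 30 bases around the polyA signal of each site with tags in more than 1 replicate, read from GRCm38, the mm10 assembly, on the strand of the gene. Capitals mark the hexamer AATAAA or ATTAAA nearest to the listed position. The leading Dlg4 site had neither hexamer within 50 bases on either side and is shown around the listed position, without capitals. The last line is a site that lay in Shank2 but carried another name in the table.
Dlg4, chr11:70045496-70045525, plus strand: ttttgagagagtgaaaggaagagacagaca
Dlgap3, chr4:127236986-127237015, plus strand: tatcccaggaaaAATAAAaccgcagaactg
Shank3, chr15:89560228-89560257, plus strand: ataatattatgtAATAAAtttataagaaat
Ddn, chr15:98803785-98803814, minus strand: tagcaggcgcccAATAAAtctactcgcccc
Shank1 proximal, chr7:44359795-44359824, plus strand: tatacaaagcaaAATAAAaattaaaaaaaa
Shank1 distal, chr7:44360055-44360084, plus strand: tcattctttataATTAAActcacagtatcc
Dlgap1 proximal, chr17:70819370-70819399, plus strand: tcaaatgaataaAATAAAaggttttctacc
Dlgap1 distal, chr17:70821375-70821404, plus strand: aaagaaggaattAATAAAataatcaatgca
Dlgap4, chr2:156764331-156764360, plus strand: gcatgttgtgagAATAAAtgaggtaacgtg
Shank2, chr7:144424461-144424490, plus strand: tactgtaaaaaaAATAAAtatactcttgca

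The libraries held 16017, 6609, 5947 and 6099 tags in replicates 1 to 4, so a gene with no tags could still have held up to 0.0187%, 0.0454%, 0.0504% and 0.0492% of them (3 tags of the total, counting error only). The scaffold genes together took 168, 82, 21 and 34 tags of replicates 1 to 4. As a share of each library this was 1.05%, 1.24%, 0.353% and 0.557%, or 0.800% ± 0.414 (SD, n = 4), and the share in replicates 1 and 2 was above that in replicates 3 and 4 with 95% Wilson intervals that did not overlap. These are shares of the RNA recovered with tagged Pabpc1 from whole tissue pieces, in which fewer processes and less RNA in each of them cannot be told apart. The median of the 10 genes was 24 tags, against 2 tags over all 7202 gene names of the table, and 6 of the 10 had at least 20 tags, against 2.93% of all names. Tags with sequence like Bc1, a short repeated noncoding RNA, made up 32.9%, 11.8%, 2.59% and 2.07% of replicates 1 to 4. With these left out of the totals, the scaffold share was 1.56%, 1.41%, 0.363% and 0.569% (0.975% ± 0.597, SD, n = 4). Replicates 1 and 2 were again above replicates 3 and 4, with a larger SD, and replicate 1 in place of replicate 2 was the highest.

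Of the 21 scaffold sites, 9 had tags in more than 1 replicate, against a background of 34.2% over all sites, and these 9 carried 289 of the 305 tags. The other 12 had 1 or 2 tags each. Tags were found in every replicate for 5 of the genes, Dlg4, Ddn, Shank1, Dlgap1 and Dlgap4, where the background was 7.76% of all gene names. A gene with more tags is found in more libraries, so both counts move with the level of these genes.

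**Figure D1:**
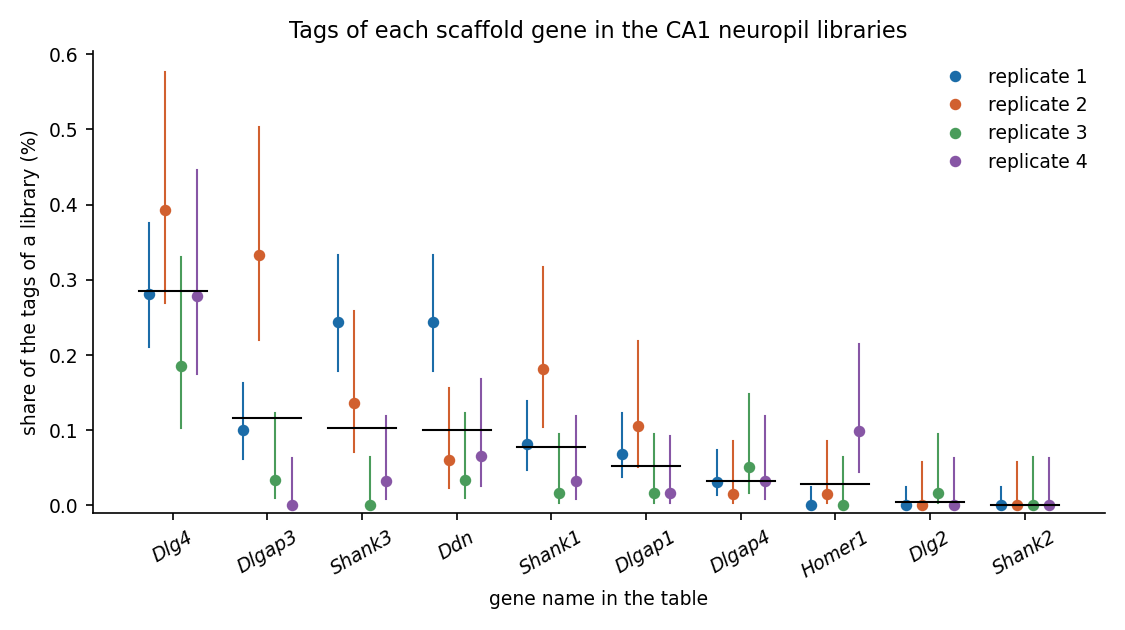
Share of the tags of each library (percent, vertical axis) at each scaffold gene name (horizontal axis, ordered by mean share). Points are the 4 replicates, vertical lines their 95% Wilson intervals and horizontal bars the means over the replicates. Dlg4 stood highest with all points between 0.185% and 0.393%, while Shank3 and Dlgap3 ran from 0 up to 0.243% and 0.333%, and no tag was named Shank2.

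Dlg4 encodes the most abundant membrane-associated scaffold of the density, which anchors glutamate receptors through its PDZ domains. It took 45, 26, 11 and 17 tags of replicates 1 to 4, which was 0.281%, 0.393%, 0.185% and 0.279% of the libraries. No replicate stood apart, and Dlg4 was the highest of the 10 genes in each of them. The mean share was 0.285% ± 0.0853 (SD, n = 4), the rank of which was 21 among all 7202 names. Fisher's exact test of Dlg4 tags against all other tags by replicate gave p = 0.188, with an adjusted p of 0.221 over the 211 genes with at least 20 tags (Benjamini-Hochberg). The SD of the share divided by its mean was 0.300, which was rank 12 from the lowest among the 211 genes, whose median was 0.828. Of the 20 genes with at least as many tags as Dlg4, only Dlg4 and 1 other had an adjusted p that missed 0.05. With Bc1-like sites left out of the totals, the mean share of Dlg4 was 0.335% ± 0.120 (SD, n = 4). The adjusted p of Fisher's exact test was then 0.0589, just above the threshold. A p that misses the threshold does not show that the share of Dlg4 was the same in the libraries.

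Almost all Dlg4 tags lay at a short 3′UTR. The site at position 70045508 of chromosome 11 (plus strand) took 43, 26, 11 and 17 tags in replicates 1 to 4. It lay 813 bases past the stop codon, at a base the RefSeq assembly marks as a repeat, and 24 bases upstream of the end of the vM21 transcript Dlg4-203. A longer 3′UTR of the same stop codon is annotated in Dlg4-215, and the site 11 bases upstream of its end, 2816 bases past the stop codon, had 2 tags in replicate 1 and 0 in the others. The short end therefore held 97 of 99 tags, or 98.0% (95% Wilson interval 92.9% to 99.4%), and all tags of replicates 2 to 4. The long end carried an ATTAAA that started 2 bases downstream of the listed position, whereas the short end had no such hexamer within 50 bases.

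Dlg2, which encodes a close relative of the Dlg4 protein, had a single tag, in replicate 3. That tag lay in an intron of Dlg2 at position 91102359 of chromosome 7, 1347 kb before the end of the gene and without AATAAA or ATTAAA within 50 bases. No tag was listed at any of the annotated Dlg2 3′ ends. The table holds only sites that overlap a set of Camk peaks, as its name says, so tags at an end outside those peaks would not appear. From these counts the level of Dlg2 mRNA could not be measured, and its count was under the 3 tags taken as the floor.

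Shank proteins are the large scaffolds of the deeper layer, which bind Dlgap through their PDZ domain and Homer through a proline-rich stretch. Shank3 had 39, 9, 0 and 2 tags in replicates 1 to 4. Its shares were 0.243%, 0.136%, 0 and 0.0328% (mean 0.103% ± 0.110, SD, n = 4). Replicate 1 was the highest, and without it the mean was 0.0563%. The Fisher's exact test across replicates gave an adjusted p of 3.73e-06. All 50 tags lay at 1 site (chromosome 15, position 89560236, plus strand), 25 bases upstream of the annotated gene end and 1913 bases past the stop codon, so no second Shank3 end was seen at this depth.

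Shank1 had 13, 12, 1 and 2 tags in replicates 1 to 4. These were shares of 0.0812%, 0.182%, 0.0168% and 0.0328%, with a mean of 0.0781% ± 0.0742 (SD, n = 4). Replicate 2 was the highest and without it the mean was 0.0436%. The Fisher's exact test gave an adjusted p of 0.0115. The tags lay at 3 sites of a single long 3′UTR. The distal site (chromosome 7, position 44360069, plus strand) took 11, 10, 0 and 2 tags and the site 267 bases before it (44359802) took 2, 1, 1 and 0, so the distal site held 85.2% of the tags of the pair (95% Wilson interval 67.5% to 94.1%). Replicate 3 was the only library with a tag at the proximal and none at the distal site. Neither site coincided with an annotated end. The distal site stood 503 bases and the proximal site 770 bases upstream of the end of Shank1-203, the transcript with the long 3′UTR, at 2732 and 2465 bases past the stop codon. Both had a polyA signal, which started 2 bases upstream of the distal position and 5 bases downstream of the proximal position. The remaining tag, in replicate 2, lay at 44358504, nearer to the stop codon.

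No row of the table was named Shank2. A site with 10 tags in replicate 1 and 1 tag in replicate 3 lay in the vM21 gene Shank2 (chromosome 7, position 144424466, plus strand) and was named Mir3105, a microRNA gene that ends 415 kb upstream on that strand. The site stood 3331 bases past the Shank2 stop codon and 16 bases upstream of the end of the transcript Shank2-205, with AATAAA starting 7 bases downstream of the listed position. It was chosen after its values were seen, and by name alone Shank2 would be read as having no tags. With vM21 names in place of those in the table, which adds this site and drops a Homer1 site that lay outside its gene, the scaffold share was 0.812% ± 0.429 (SD, n = 4).

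Dlgap proteins link Dlg to Shank. Dlgap3 had 16, 22, 2 and 0 tags in replicates 1 to 4. Its shares were 0.0999%, 0.333%, 0.0336% and 0 (mean 0.117% ± 0.150, SD, n = 4), so that replicate 2 carried much of the mean, which was 0.0445% without it. The Fisher's exact test gave an adjusted p of 3.77e-07, the smallest among the scaffold genes. All 40 tags lay at 1 site (chromosome 4, position 127236994, plus strand), 28 bases upstream of the annotated gene end. The listed position stood 626 bases past the stop codon, the shortest such distance among the sites with tags in more than 1 replicate.

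Dlgap1 had 11, 7, 1 and 1 tags in replicates 1 to 4, with a mean share of 0.0520% ± 0.0436 (SD, n = 4) that fell to 0.0340% without replicate 2. The adjusted p was 0.121 in the Fisher's exact test, and 0.0477 when Bc1-like sites were left out of the totals. The 20 tags were spread over 5 sites, of which 2 had tags in more than 1 replicate. The site at 70819382 (chromosome 17, plus strand) took 4 tags of replicate 1 and 5 of replicate 2, and the site at 70821390, which lies 2008 bases further and 19 bases upstream of the end of Dlgap1-211, took 6 tags of replicate 1 and 1 of replicate 4. Replicate 2 thus had tags at the proximal site of this pair alone, and replicate 4 at the distal site alone. The proximal and distal positions of this pair stood 1148 and 3156 bases past the same stop codon. A different end, at 70816710 with 1 tag in replicate 1, lay 13 bases upstream of the end of Dlgap1-210, a transcript with a different stop codon. The other sites were at 70819719, with 2 tags in replicate 2, and in an intron at 70751858, with 1 tag in replicate 3.

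Dlgap4 had few tags but the most even shares after Dlg4, relative to the mean. It took 5, 1, 3 and 2 tags in replicates 1 to 4, or 0.0324% ± 0.0144 of the libraries (SD, n = 4), with Wilson intervals that overlapped for every pair of replicates. With 11 tags it was below the minimum of 20 for the test. The site at 156764340 (chromosome 2, plus strand) held 10 of the 11 tags and lay 21 bases upstream of the end of Dlgap4-205, 1437 bases past the stop codon. The remaining tag, in replicate 1, lay 41 bases past the stop codon.

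Ddn encodes dendrin, whose mRNA is known for its transport into dendrites. It had 39, 4, 2 and 4 tags in replicates 1 to 4. The share was 0.243% in replicate 1 and between 0.0336% and 0.0656% in the others, with Wilson intervals that did not overlap between replicate 1 and any other. The mean was 0.101% ± 0.0962 (SD, n = 4), or 0.0532% without replicate 1, and the adjusted p of the Fisher's exact test was 0.000142. All 49 tags lay at 1 site (chromosome 15, position 98803813, minus strand), 36 bases upstream of the annotated gene end and 1464 bases past the stop codon.

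Homer1 encodes the adaptor that joins Shank to metabotropic glutamate receptors, and a short form of it, Homer1a, comes from a transcript that ends in an intron and lacks the coiled coil through which the long forms assemble. Homer1 had 0, 1, 0 and 6 tags in replicates 1 to 4, a mean share of 0.0284% ± 0.0472 (SD, n = 4) that was 0.00504% without replicate 4. The 7 tags fell at 5 sites, none with tags in more than 1 replicate. A site with 2 tags in replicate 4 (chromosome 13, position 93360430, plus strand) lay 32 bases upstream of the end of Homer1-204, which encodes 186 residues and is the Homer1a type of transcript, 44.7 kb before the end of the gene. The long form of up to 370 residues had 3 tags at 3 sites, at 93403672 and 93404729 in replicate 4 and at 93404110 in replicate 2. The remaining 2 tags, in replicate 4, lay 7.81 kb past the end of Homer1 in an exon of the vM21 gene Gm47155. Both kinds of Homer1 3′ end were thus tagged, but with counts under or at the floor of 3 tags their ratio could not be measured at this depth.

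**Figure D2:**
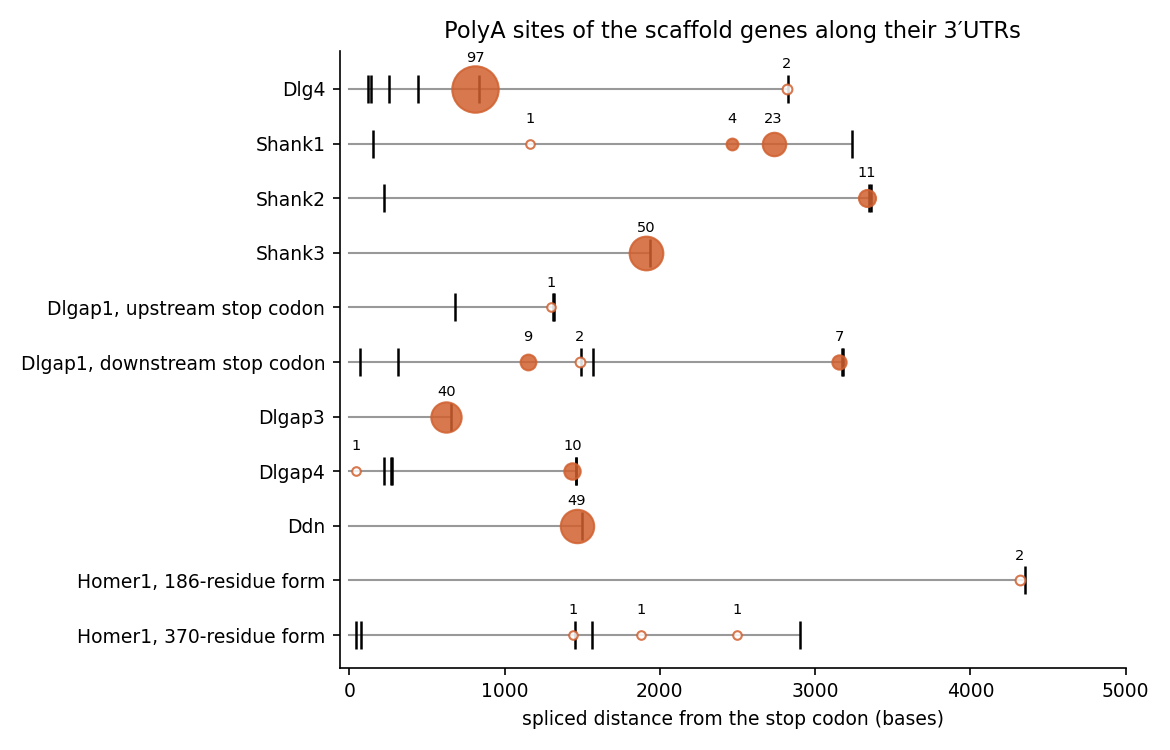
Scaffold polyA sites that lay in a vM21 3′UTR, placed by their spliced distance from the stop codon in bases (horizontal axis), with a row for each stop codon of a gene. Circle area grows with the tags of the 4 libraries together, which are printed above the circle, filled circles had tags in more than 1 replicate, and black ticks are 3′ ends of annotated coding transcripts with that stop codon. The Shank2 circle is the site named Mir3105 in the table. The leading Dlg4 circle (97 tags) sits at a short annotated end and not at the long one, and the Shank1 circles lie between annotated ends.

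In the order of mean share the genes ran Dlg4, Dlgap3, Shank3, Ddn, Shank1, Dlgap1, Dlgap4, Homer1 and Dlg2. Each tag was read as a 3′ end, so the shares were not divided by the length of the mRNA, and recovery may still differ between sites. Dlg4 was above Dlgap3 in 4 of 4 replicates, by 0.168 percentage points ± 0.0899 (SD of the difference). A two-sided exact sign-flip permutation test of this difference returned p = 0.13, which 4 replicates cannot go below, and an adjusted p of 1 over the 8 neighbouring pairs. The other 7 neighbouring pairs differed by less than the SD of their difference. The pairs were taken from the order of these same shares, and with 4 replicates the test could resolve no step of it, that at Dlg4 included. Genes farther apart in the order were not tested. By family, with libraries weighted equally, the Dlg genes had a mean share of 0.289% ± 0.0789 (SD, n = 4), the Dlgap genes 0.201% ± 0.180, the Shank genes 0.181% ± 0.163, Ddn 0.101% ± 0.0962 and Homer1 0.0284% ± 0.0472. The order was not the same in every library, since the Shank genes were above the Dlg genes in replicate 1 and the Dlgap genes above the Dlg genes in replicate 2, and the mean of the Dlgap genes was 0.117% without replicate 2. In tags pooled over the libraries, of which replicate 1 gave 168 of 305, the Shank genes (78 tags) stood above the Dlgap genes (71 tags). With vM21 names, which add the Shank2 site, the mean shares of the Shank and Dlgap genes were level at 0.201% each, so their order was not resolved.

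The share of a gene was next compared between the replicates, to set the spread between libraries against counting error. Fisher's exact test called 4 of the 6 scaffold genes that reached 20 tags (Shank1, Shank3, Dlgap3 and Ddn), at an adjusted p under 0.05, where the background was 69.7% of the 211 genes tested. The share called among the scaffold genes was thus near that of the table. With Bc1-like sites left out of the totals, 5 of 6 were called, with Dlgap1 added, against 63.5% of the 192 genes tested. Fewer genes reached 20 tags when a library was left out. Without replicate 1 the count was 1 of 2 tested (Dlgap3, against 75% of all genes tested), and without replicate 2 it was 2 of 3 (Ddn and Shank3, against 60.6%). Copies made by PCR are not separate molecules, and the intervals and the p of Fisher's exact test cover counting error only.

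**Figure D3:**
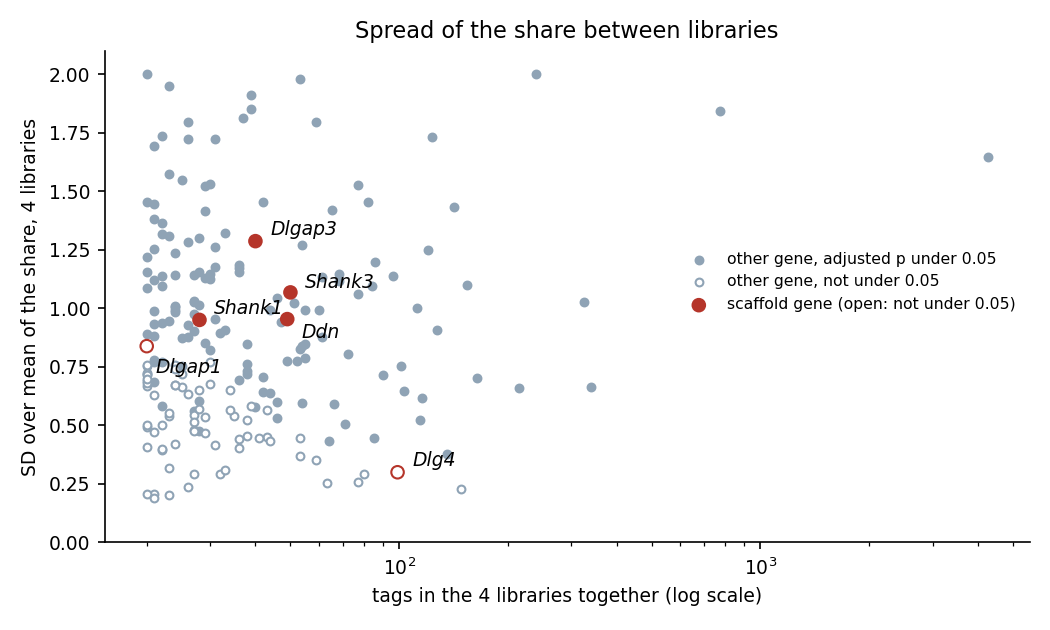
SD of the share over the 4 libraries divided by its mean (vertical axis) against the tags of the gene in the 4 libraries together (horizontal axis, log scale), for the 211 genes with at least 20 tags. Filled points had an adjusted p under 0.05 in Fisher's exact test across replicates, open points did not, and scaffold genes are in red. Dlg4 (99 tags, 0.300) lies at the lower edge, whereas Dlgap3 (1.29) and Shank3 (1.07) lie higher.

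The shares of the scaffold genes were also set against their own means, as a description. The median of the 6 tested genes was 118%, 171%, 30.6% and 36.9% of their own means in replicates 1 to 4, and that of all 211 genes 80.6%, 108%, 71.3% and 77.2%. In replicate 3 all 6 tested genes were below their own mean over the replicates, from 0% of it for Shank3 to 65.0% for Dlg4. In replicate 4 they were again all below it, from 0% for Dlgap3 to 98.0% for Dlg4. The tested genes, like the 211, were chosen by their tags in all libraries together, to which replicate 1 gave the most. This choice favours genes high in replicate 1, so low values in replicates 3 and 4 may partly follow from it. Scaffold genes with too few tags for the test were mixed. In replicates 3 and 4 Dlgap4 was at 156% and 101% of its mean, Homer1 at 0% and 347%, and Dlg2 at 400% and 0%. In replicate 2 Dlgap3 was at 285% of its mean and Shank1 at 233%, while Ddn was below its mean. In replicate 1 Ddn and Shank3 were at 242% and 236% of their mean, and Dlgap3 was at 85.7%. Counted against Dlg4 in the same library, which does not depend on the library total, Shank3 had 86.7, 34.6, 0 and 11.8 tags for every 100 Dlg4 tags in replicates 1 to 4, Dlgap3 had 35.6, 84.6, 18.2 and 0, and Ddn had 86.7, 15.4, 18.2 and 23.5. Dlg4 itself held 26.8% and 31.7% of all scaffold tags in replicates 1 and 2, 52.4% in replicate 3, and 17 of 34 tags in replicate 4. These comparisons were made after the values were seen and were not tested.

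Site usage was compared where a gene had more than 1 site with tags in more than 1 replicate, which held for Shank1 and Dlgap1. Shank1, the only scaffold gene with at least 20 tags at such sites, had an adjusted p of 0.504 in Fisher's exact test of site by replicate over 50 genes (unadjusted p = 0.275), so the count of scaffold genes called was 0 of 1 at either p, against a background of 26.0%. With a minimum of 10 tags Dlgap1 had p = 0.0337 in Fisher's exact test and an adjusted p of 0.177 over 105 genes. With all listed sites it passed the threshold, the only scaffold gene that did among the 3 tested then, where 16.8% of the 101 genes tested were called. Over both genes the distal sites held 17, 10, 0 and 3 tags of replicates 1 to 4 and the proximal sites 6, 6, 1 and 0. The log2 ratio of distal to proximal tags (with 0.5 added to each count) averaged 0.84 ± 1.84 (SD), lay above 0 in 3 of 4 replicates, and gave p = 0.5 in a two-sided exact sign-flip permutation test against 0. Without replicate 3 it was 1.64 ± 1.07 (SD, exact permutation p = 0.25), and without any other replicate Shank1 was the only gene left in it. The direction changed with the sites included. For Dlgap1 alone the mean was -0.34 ± 2.18 (SD) with p = 1 in the exact permutation test, and replicate 3 had no tags at either site. Over all listed sites of 5 genes, where the short Dlg4 end enters, it was -1.35 ± 0.379 (SD), and the exact permutation test gave the smallest p that 4 replicates allow, 0.13.

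In sequence the sites with tags in more than 1 replicate resembled the table in some features and stood apart from its median in others. All 9 lay in a 3′UTR, against 88.6% of the 3182 annotated sites of the table with tags in more than 1 replicate, and 6 of 9 had an annotated coding 3′ end within 50 bases downstream, against 70.4%. The exceptions were both Shank1 sites and the proximal Dlgap1 site, 342 bases upstream of the nearest end. The distance from the stop codon to the listed position ran from 626 bases (Dlgap3) to 3156 bases (distal Dlgap1), with a median of 1464 bases. The median of those sites of the table was 1080 bases. GC content within 100 bases on either side ran from 35.8% to 60.2% with a median of 48.8%, against 38.3%, and was highest at the distal Shank1 site and at Dlgap3 (58.7%). No test was made of these differences over 9 sites.

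The listed positions stood close to the polyA signal. AATAAA or ATTAAA occurred within 50 bases upstream at 5 of all 21 scaffold sites, against 30.3% of the 9294 annotated sites, and within 50 bases on either side at 15 of 21, against 78.1%. Among the 9 sites with tags in more than 1 replicate, 8 had a hexamer in the wider window, and Dlg4 was the exception. All 9 scaffold sites with an AATAAA had it starting between 10 bases upstream and 15 bases downstream of the listed position, where 84.0% of the 5982 such sites of the table had it. The cytoplasmic polyadenylation element TTTTAT, searched on the strand of the site from 100 bases upstream to 10 bases downstream, occurred at 0 of the 9 sites and at 17.2% of the table sites with tags in more than 1 replicate. The Pumilio motif TGTANATA in the same window occurred at 2 of the 9, Ddn and distal Dlgap1, and at 7.61% of those sites. The listed base was marked as a repeat by the RefSeq assembly at 13 of the 21 sites, against 44.0% of all sites, and no scaffold site held a word of the Bc1 sequence.

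**Figure D4:**
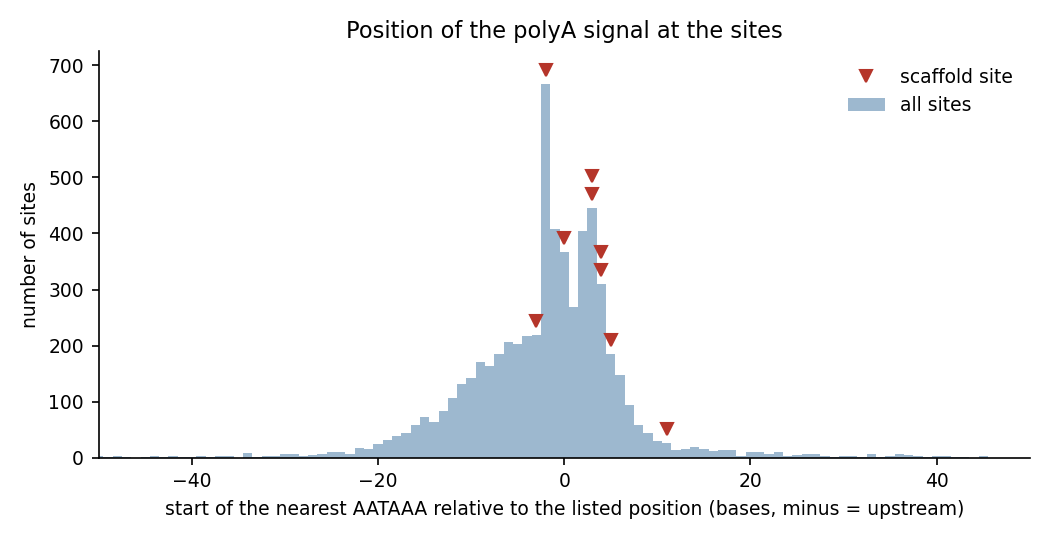
Start of the nearest AATAAA relative to the listed position in bases (horizontal axis, minus is upstream) for the sites of the table that had one within 50 bases (bars, number of sites on the vertical axis). Each red triangle is a scaffold site, set above the bar of its offset. The 9 triangles fall between 3 bases upstream and 11 bases downstream, within the main body of the bars.

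Other genes of the postsynaptic density were read from a list of 38 genes. By name, 29 of these had tags and 9 were at 0, with a median of 3 tags, and together they took 0.599%, 1.24%, 0.471% and 0.787% of replicates 1 to 4 (0.774% ± 0.337, SD, n = 4). In this list 2 genes reached 20 tags, and Fisher's exact test across replicates called both, against the background of 69.7%. They were Ppp1r9b, which encodes spinophilin, an actin-binding scaffold of spines, with 21, 38, 2 and 7 tags (adjusted p = 2.69e-10 in the exact test), and Agap2, which encodes a GTPase-activating protein, with 16, 23, 3 and 5 tags (adjusted p = 0.000111). Replicate 2 was the highest for both, as it was for Dlgap3. Cnksr2 (16 tags), Baiap2 (15) and Begain (15) came next and had tags in every replicate. Of the 9 genes at 0 by name, 2 had tags by position in vM21 genes, Nsmf with 15, 26, 1 and 0 tags in replicates 1 to 4 and Magi1 with 1 tag, all listed under other names. Of the paralogs of the scaffold genes in this list, Homer2 had 12 tags, Dlgap2 had 5, Dlg1 had 3, Dlg3 had 2, Homer3 had 1, and Dlg5 and Dlgap5 had 0.

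Marker genes were summed to see which cell types moved with the scaffold share. The pyramidal neuron list took 0.431%, 0.303%, 0.454% and 0.607% of replicates 1 to 4 (mean 0.449%), with 8 of 10 genes tagged and Camk2a and Slc17a7 at 0 by name. However, 215 tags lay in the vM21 gene Camk2a under another name, at 0.949%, 0.363%, 0.202% and 0.443% of replicates 1 to 4. With these counted, a choice made after the values were seen, the list took 1.38%, 0.666%, 0.656% and 1.05% (0.938% ± 0.347, SD, n = 4), and replicate 1 in place of replicate 4 was the highest. The Slc17a7 tags found by position, 8, 3, 4 and 8 in replicates 1 to 4, were not added. The oligodendrocyte list took 0.281%, 0.545%, 0.185% and 0.131% (0.285% ± 0.184, SD, n = 4), all 6 genes tagged, and was highest in replicate 2 through Mbp with 27 tags there. The astrocyte list took 0.325%, 0.151%, 0.118% and 0.0984% (0.173% ± 0.103), all 8 genes tagged. The interneuron list took 0.0687%, 0.0908%, 0.219% and 0.295% (0.168% ± 0.107), with Gad2, Slc32a1 and Vip at 0 by name. The microglia list took 0.0250%, 0.0605%, 0.0168% and 0 (0.0256% ± 0.0255), with 5 of 7 genes at 0 by name. By position in vM21 genes, Slc17a7 had 23 tags, Gad2 had 2 and Cx3cr1 had 3, listed under other names, while Slc32a1, Vip and Tmem119 stayed at 0. The oligodendrocyte, astrocyte and microglia shares, like the scaffold share, were higher in replicates 1 and 2 than in replicates 3 and 4, and their part in the result was not tested.

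**Figure D5:**
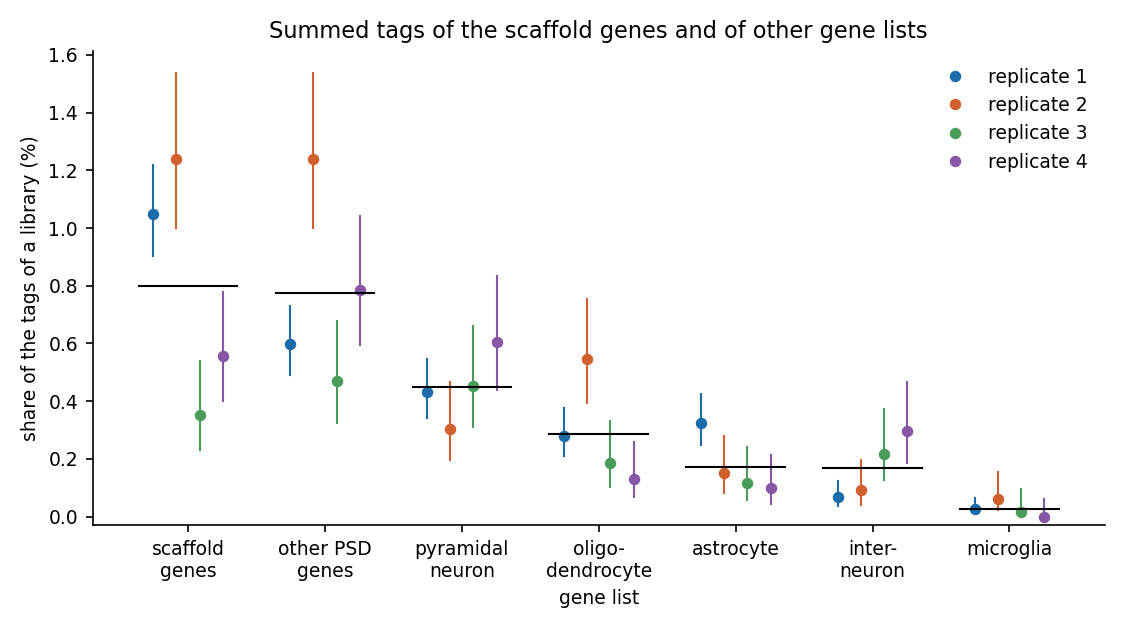
Share of the tags of each library (percent, vertical axis) summed over the scaffold genes, over 38 other genes of the postsynaptic density (PSD) and over marker lists of 5 cell types (horizontal axis). Points are the 4 replicates, vertical lines their 95% Wilson intervals and bars the means. The scaffold genes were at 1.05% and 1.24% in replicates 1 and 2 and at 0.353% and 0.557% in replicates 3 and 4, while the pyramidal neuron list, drawn by the names in the table and thus without Camk2a, was highest in replicate 4 (in replicate 1 with Camk2a counted).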

How the data were processed

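The authors deposited tag counts, whole numbers that were not normalized, for 1-base polyA sites in 4 CA1 neuropil cTag-PAPERCLIP libraries, in a table whose name limits it to sites overlapping Camk peaks. Per the study's methods, sites were called with the CTK package. The submitters' processing notes name cutadapt, Novoalign and mm10. The treatment of duplicate tags and of tags that match several places is not given in the sources used here, so tags at repeats may be misplaced. Neuropil and cell body samples were pooled after barcoding. Of the sites on named chromosomes, 0 exceeded the length of the GRCm38 chromosome.

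Here shares were tags over the library total, with 95% Wilson intervals. With a single group no fit between conditions was possible. The share of each gene name with at least 20 tags, and its site usage, were tested between replicates with Fisher's exact test (R 4.3.3, two-sided), with Benjamini-Hochberg adjustment over all genes tested (211 and 50), called under 0.05. For 1 of the 211 genes the p was simulated. Differences over replicates used an exact sign-flip permutation test. Classes, 3′ ends and stop codons came from GENCODE vM21, sequence from RefSeq GRCm38, with pysam 0.24.0. Sites were called Bc1-like if sequence within 75 bases shared 10 or more of the 63 different 12-base words found in the 5′ domain of Bc1 (74 bases). Both Fisher tests were tested on simulated data. The scaffold genes and the gene lists were chosen with earlier results of these data known. All 10 scaffold genes are named, their sites with tags in more than 1 replicate in full, and of the other postsynaptic density genes the 5 with the most tags by name, to which 7 paralogs and the genes found by position under another name were added after their values were seen. Alternatives left out a replicate, used vM21 gene names, dropped Bc1-like or leading sites from the total, or changed the minimum of tags, the sites or the search window. Replicates were pools of mice. Fisher's exact test sets their differences against counting error, and the sign-flip test sets a mean against the spread between pools.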

Additional observations from a re-analysis of the deposited data

Results flagged for a closer look

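For 16 results the highest or lowest library was set against the others by Dixon's ratio, its distance to the next library over the whole range, and 5 results were past the 95% critical value. For independent values with a normal spread, chance would flag about 1 in 20, or 0.8 of these 16. Many of these shares rest on few tags, and they use the same library totals, so that rate is only a rough guide. The total of replicate 1, 16017 tags, had a ratio of 0.934. The share of Ddn in replicate 1, 0.243%, had a ratio of 0.848. The share of Homer1 in replicate 4, 0.0984%, had a ratio of 0.846 and rested on 6 tags. The share of Dlg2 had a ratio of 1, as any gene with a single tag must, so this value carries no information. The share of Agap2 in replicate 2, 0.348%, had a ratio of 0.834.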

How the results depend on the processing

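Of 46 values recomputed for the scaffold genes as a set, 38 stayed on their side of the threshold, within 1 SD, or, for a count, within 1.5 times. In 3 of these, site usage with at least 50 tags and without replicate 1 or 2, no scaffold gene could be tested, so the count of 0 says nothing. The scaffold share ran from 0.653% to 0.949% when a replicate was left out and from 0.746% to 0.983% under the other alternatives. Sites found in more than 1 replicate numbered 7 to 9 when a replicate was left out. The number of scaffold genes whose share differed between replicates was 1 to 4 when a replicate was left out, of 2 to 5 that still reached 20 tags. The background in these runs was 60.6% to 75% of all genes tested. Without Bc1-like sites in the total the number was 5 of 6, against 63.5%. With at least 50 tags, a minimum that only Dlg4 and Shank3 meet, it was 1 of 2, against 85.7%. Site usage gave 1 gene (Dlgap1) with all listed sites. Of the 21 scaffold sites, a polyA signal was found at 15 when both sides were searched and at 1 for AATAAA alone upstream, against 5 for either hexamer upstream. Over all annotated sites these shares were 78.1%, 23.4% and 30.3%. The log2 ratio of distal to proximal tags was 0.98 to 1.64 when a replicate was left out, and turned to -1.35 with all listed sites and to -0.34 without Shank1, the gene with the most tags in it. The mean share moved by over 1.5 times when a replicate was left out for 7 of 9 scaffold genes (Ddn, Dlg2, Dlgap1, Dlgap3, Homer1, Shank1 and Shank3) and not for Dlg4 or Dlgap4. Among the adjusted p of single genes that kept enough tags to be tested, only Dlgap1 in the test of shares changed sides, and it crossed the threshold without Bc1-like sites in the total (adjusted p = 0.0477 by Fisher's exact test). No paired analysis was possible because the libraries form a single group. Counts of a few tags limit the comparison of single sites, and the test resolved no neighbours in the order of the genes.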
